A study of Mus musculus with 4 samples.

Results

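Ephrins, semaphorins, Slits and netrins are the classical axon guidance cues, and the genes of these ligands and of their receptors are described here in the cochlea of mice with a mutant helios gene. A gene belonged if its symbol was Epha, Ephb, Efna, Efnb, Robo, Slit or Ntn followed by a digit, began with Sema, Plxn or Unc5, or was Dcc, Nrp1 or Nrp2, and 73 of the 37239 genes in the files did so. Of these, 68 encode guidance ligands or receptors. The other 5 match by their letters alone, and are kept apart: Unc50, Unc5cl, which is named for its likeness to the end of an Unc5 receptor, and the antisense RNA genes Plxna4os1, Plxna4os2 and Plxna4os3.

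RNA came from whole cochleae dissected at postnatal day 8, from mice homozygous for the cello allele of Ikzf2 (Ikzf2cello/cello) and from Ikzf2+/+ littermates, with 2 libraries per genotype. Cello is a point mutation, carried in every cell of these animals, and helios is a DNA-binding protein of the Ikaros family that outer hair cells use as they mature. The libraries are labelled biological duplicates, but the labels give neither the strain nor how many animals a library holds. The p-values therefore rest on the spread within each genotype among these 4 libraries. For each gene, limma draws that spread toward the spread of all tested genes at a similar level. The study asked how cochlear gene expression differs between these genotypes. Ikzf2 itself stood at 17.7 and 16.9 CPM (read counts scaled to the library's counted alignments) in cello, against 22.9 and 18.5 CPM in wild-type (log2 fold change -0.24, SE 0.13, limma adjusted p = 0.545), and a point mutation need not alter the level, so this does not check the labels. The libraries held 42450937 and 47463910 counted alignments in cello and 49719984 and 42152616 in wild-type, and 1 read was worth between 0.0201 and 0.0237 CPM.

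Guidance molecules steer a growing axon by attraction or repulsion at its tip, the growth cone, and also pattern vessels and epithelia. Ephrins are membrane-bound ligands of Eph receptor tyrosine kinases, and both partners can signal into their own cell. Semaphorins bind plexins, with neuropilins as co-receptors for most of the secreted class, Slits bind Robo receptors, and netrins attract through Dcc and repel through Unc5 receptors. In the developing cochlea these systems place spiral ganglion neurons and sort their fibres to inner and outer hair cells, for example through Epha4 with ephrin-B ligands and through the secreted semaphorin Sema3f with its receptor Nrp2.

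The cochlea at this age expressed nearly the whole set. Of the 68 guidance genes, 66 reached 1 CPM in at least 2 libraries and were tested, and 2 did not. Epha6, an EphA receptor gene, had 7 and 14 reads in cello and 4 and 6 reads in wild-type. Robo3, the Robo of midline crossing, had 3 and 3 reads in cello and 0 and 5 reads in wild-type, where a library with 0 reads allows up to 3 by counting error alone. Of the 5 genes matched by letters alone, Unc50 (49.4 and 50.1 CPM in cello, 52.3 and 52.3 CPM in wild-type) and Unc5cl (3.02 and 3.58 CPM in cello, 4.77 and 3.87 CPM in wild-type) were tested and did not pass (limma adjusted p = 0.736 and 0.546). The antisense RNAs of Plxna4 had at most 15 reads in any library.

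Levels were compared between genes as CPM per kb of merged exons, averaged over the libraries of a genotype. By the mean over all 4 libraries on this scale, the highest genes of their families were Plxnb2, a plexin for class 4 semaphorins (27.3 in cello, 33.0 in wild-type), Ntn4, a netrin of basement membranes (24.7 in cello, 30.6 in wild-type), Sema7a, a semaphorin anchored to the membrane by lipid (20.4 in cello, 11.9 in wild-type), Ephb4, the receptor of ephrin-B2 on veins (19.1 in cello, 21.1 in wild-type), Efna1 (11.8 in cello, 15.3 in wild-type) and Slit3 (7.02 in cello, 7.28 in wild-type). Among the ephrins the order differed by genotype, since Efnb2 stood at 13.7 in cello and 12.7 in wild-type. Plxnd1, the receptor of Sema3e, followed Plxnb2 among the plexins at 22.5 in cello and 18.2 in wild-type. The lowest tested gene per length, by its mean over all libraries, was Slit1, at 0.216 in cello and 0.165 in wild-type. Dcc was nearly as low, at 0.192 in cello and 0.214 in wild-type.

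**Figure D1:**
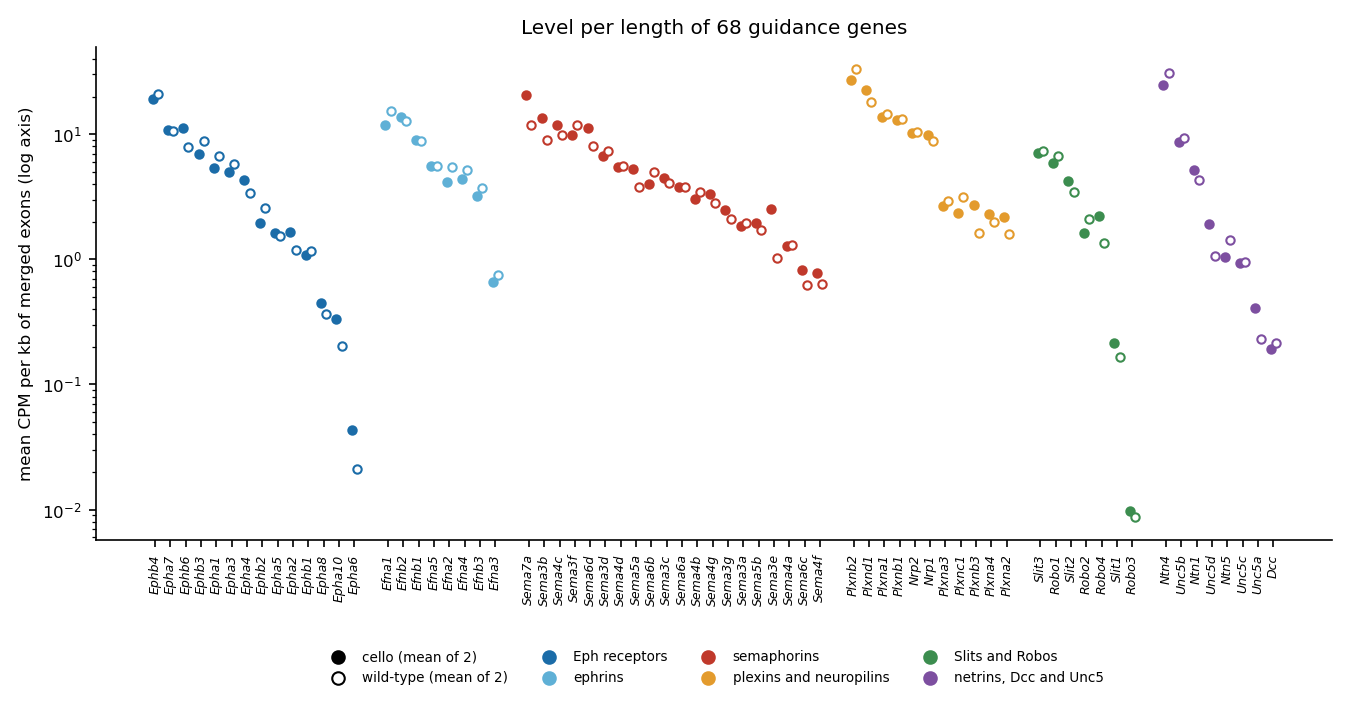
Mean CPM per kb of merged exons (log axis) of the 68 guidance genes, by family, with filled points for cello and open points for wild-type (means of 2 libraries). Plxnb2 and Ntn4 lie highest and Robo3 and Epha6 lowest, and the points of the genotypes lie close together beside the range between genes.

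Between genotypes, 0 of the 66 guidance genes passed an adjusted p of 0.05 in limma, as did 0 of the 14721 genes tested (0%), so none of them is called changed by the main test. At an unadjusted p under 0.05, 15 of the 66 stood out, 22.7% against 10.9% of all genes tested. Of these, 9 were higher in cello (13.6% of the members, against 4.42% of all genes) and 6 were lower (9.09%, against 6.47%). These counts depended on single libraries, and the shares of all genes with a library left out are not given here. Whether this dependence is particular to the guidance genes was not tested. Leaving out cello replicate 1 gave 12 higher and 10 lower, and leaving out cello replicate 2 gave 12 higher and 11 lower. Dropping wild-type replicate 1 left 4 higher and 3 lower, and dropping wild-type replicate 2 left 12 higher and 1 lower. The count test edgeR called 0 guidance genes and 0 genes in all, with 16 guidance genes at an unadjusted p under 0.05, where 9.94% of all genes stood there. DESeq2 called 2 guidance genes, Sema3e and Sema6d, both higher in cello, and gave no adjusted p for 5 others. It called 1.5% of all genes, and 0.892% as higher. The libraries of the genotypes did not overlap for 38 guidance genes, 57.6% against 45.6% of all genes. These were 21 that were higher in cello, 31.8% of the tested members against 16.9% of all genes, and 17 that were lower, 25.8% against 28.7%. The median log2 fold change (cello minus wild-type, on log2(CPM + 0.5), which understates changes of low genes) was 0.00 over the 66 genes and -0.03 over all genes. Its median size without regard to sign was 0.24 for the guidance genes and 0.13 for all genes.

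The semaphorins held 7 of the 15 genes at an unadjusted p under 0.05, 35% of the semaphorins tested against 10.9% of all genes. Among the 20 tested, 12 lay above 0 and 8 below, the median log2 fold change was 0.21, and the libraries did not overlap for 10 that were higher (50% of them, against 16.9% of all genes) and 3 that were lower (15%, against 28.7%). The 13 membrane-bound members had 8 higher and 2 lower without overlap (median 0.24), and the 7 secreted class 3 members had 2 higher and 1 lower (median 0.12). By limma 0 of them passed after adjustment.

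Sema3e, a secreted semaphorin that signals through Plxnd1 without a neuropilin, had the largest difference of all 66 genes. It stood at 21.6 and 25.6 CPM in cello, against 6.17 and 13.0 CPM in wild-type. Both cello libraries lay above both wild-type libraries, and wild-type replicate 1 lay lowest by far. The log2 fold change was 1.34 (SE 0.34, 95% interval 0.48 to 2.20), with adjusted p = 0.421 by limma, 0.451 by edgeR and 0.0153 by DESeq2. Leaving out wild-type replicate 1 gave 0.84, and leaving out wild-type replicate 2 gave 1.85, with a limma adjusted p = 0.0345, in a fit where the lone wild-type library is assumed to vary like the cello ones. Sema3e is ENSMUSG00000063531, on chromosome 5 from 14025276 to 14256689 of GRCm38, plus strand.

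Sema7a, a ligand of the plexin Plxnc1 and of integrins, stood at 77.0 and 57.6 CPM in cello, against 31.2 and 47.2 CPM in wild-type (log2 fold change 0.79, SE 0.24, limma adjusted p = 0.429). Its libraries did not overlap, but those of each genotype lay well apart, and the difference was 0.49 without wild-type replicate 1. Sema6d, a transmembrane ligand of the class A plexins, stood at 130.2 and 105.0 CPM in cello, against 84.9 and 84.6 CPM in wild-type, with a log2 fold change of 0.46 (SE 0.12) and adjusted p = 0.421 by limma, 0.451 by edgeR and 0.0454 by DESeq2. The wild-type libraries were nearly equal here, and the difference was 0.31 without cello replicate 1. Sema5a, a semaphorin with thrombospondin repeats that binds Plxnb3, stood at 108.4 and 90.2 CPM in cello, against 65.2 and 75.9 CPM in wild-type (log2 fold change 0.49, SE 0.13, limma adjusted p = 0.421), again without overlap.

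Smaller differences in the same direction were measured for Sema4c, a ligand of Plxnb2, at 52.4 and 57.3 CPM in cello, against 42.6 and 47.3 CPM in wild-type (log2 fold change 0.29, SE 0.10), and for Sema4g, which also binds Plxnb2, at 28.3 and 29.1 CPM in cello, against 24.1 and 24.5 CPM in wild-type (0.24, SE 0.09). Sema3b, a secreted semaphorin, stood at 64.2 and 64.4 CPM in cello, against 31.4 and 54.3 CPM in wild-type. Its cello libraries lay within 1 CPM of each other while its wild-type libraries differed by 0.78 on the log2 scale, more than the difference between genotypes (0.63, SE 0.25, limma adjusted p = 0.461), and without wild-type replicate 1 that difference was 0.24. The semaphorin that was lower at an unadjusted p under 0.05 was Sema3f, a repellent of neuropilin-2 axons. It stood at 51.2 and 51.5 CPM in cello, against 61.5 and 61.4 CPM in wild-type, so the libraries of each genotype agreed within 1 CPM. The log2 fold change was -0.26 (SE 0.07, limma adjusted p = 0.425). Sema6a, a partner of Plxna2 and Plxna4, was at 32.6 and 33.7 CPM in cello, against 33.0 and 33.8 CPM in wild-type, with a 95% interval of the log2 fold change from -0.22 to 0.20.

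**Figure D2:**
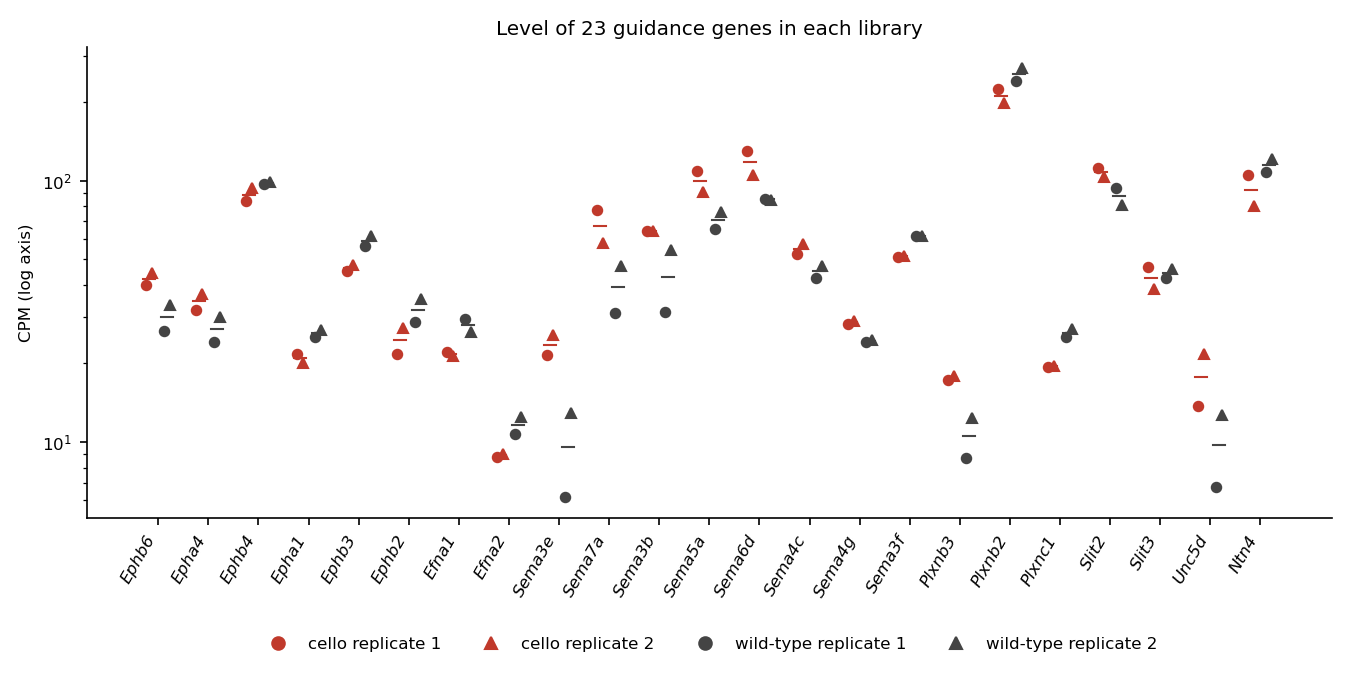
CPM (log axis) of 23 guidance genes in each library, with cello in red at the left and wild-type in dark grey at the right of each gene, circles for replicate 1, triangles for replicate 2 and a bar at each mean. Sema3e, Plxnb3, Sema7a, Sema3b and Unc5d have wild-type replicate 1 well below wild-type replicate 2.

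Semaphorin receptors differed in both directions. Of 11 tested plexin and neuropilin genes, 3 were higher (27.3%, against 16.9% of all genes) and 4 lower (36.4%, against 28.7%) without overlap. In each direction 1 had an unadjusted p under 0.05 (18.2% in all, against 10.9%), and the median log2 fold change was -0.01. Plxnc1, the receptor of Sema7a, had the smallest unadjusted p of all members, and its level was 19.5 and 19.6 CPM in cello, against 25.2 and 27.2 CPM in wild-type (log2 fold change -0.41, SE 0.09, limma adjusted p = 0.419). Plxnb3, the receptor of Sema5a, was at 17.3 and 18.0 CPM in cello, against 8.71 and 12.4 CPM in wild-type (0.74, SE 0.18, limma adjusted p = 0.419, DESeq2 adjusted p = 0.057). Cello libraries of both receptors lay within 1 CPM of each other, on opposite sides of wild-type. Plxnb2 stood at 223.9 and 197.8 CPM in cello, against 240.5 and 268.2 CPM in wild-type (-0.27, SE 0.11, limma adjusted p = 0.459), without overlap.

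Set side by side, the partners of a ligand and receptor pair did not always share a direction. Sema7a was higher and Plxnc1 lower, Sema4c and Sema4g were higher and Plxnb2 lower, while Sema5a and Plxnb3 were both higher. Plxnd1, the receptor of Sema3e, stood at 189.3 and 139.6 CPM in cello, against 133.9 and 131.5 CPM in wild-type (0.29, 95% interval -0.10 to 0.68), and it was cello replicate 1 that stood apart. For Sema3f, the receptor Nrp2 was at 136.1 and 108.2 CPM in cello, against 115.7 and 128.9 CPM in wild-type (-0.01, 95% interval -0.35 to 0.33), with overlapping libraries. Nrp1, the receptor of Sema3a, had 106.8 and 86.6 CPM in cello, against 89.8 and 81.6 CPM in wild-type, and also overlapped. None of the receptor differences passed after adjustment in limma, edgeR or DESeq2.

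The sequence before the start of 4 genes is shown, because these are the largest difference (Sema3e) and the receptors and ligand that went apart (Plxnb3, Plxnc1 and Sema7a). Each is the stretch of 200 bases from 250 to 51 bases before the RefSeq start, on GRCm38.p6, written on the strand of the gene. Capitals mark GGGAA or its other strand TTCCC, the core of the sites that Ikaros family proteins are known to bind. The windows lie at chr5:14025026-14025225 on the plus strand for Sema3e, chrX:73756853-73757052 on the plus strand for Plxnb3, chr9:57939862-57940061 on the plus strand for Sema7a and chr10:94944896-94945095 on the minus strand for Plxnc1.
Sema3e: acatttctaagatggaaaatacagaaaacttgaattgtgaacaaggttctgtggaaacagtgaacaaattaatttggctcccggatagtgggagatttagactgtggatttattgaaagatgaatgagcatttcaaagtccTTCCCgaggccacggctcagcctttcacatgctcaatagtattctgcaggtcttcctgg
Plxnb3: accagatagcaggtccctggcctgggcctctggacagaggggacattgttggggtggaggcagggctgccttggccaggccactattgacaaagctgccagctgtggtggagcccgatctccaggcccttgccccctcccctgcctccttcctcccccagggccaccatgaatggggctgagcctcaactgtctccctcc
Sema7a: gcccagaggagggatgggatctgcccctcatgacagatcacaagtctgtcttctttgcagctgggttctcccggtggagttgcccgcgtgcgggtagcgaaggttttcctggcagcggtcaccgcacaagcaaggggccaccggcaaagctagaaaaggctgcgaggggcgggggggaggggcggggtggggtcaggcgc
Plxnc1: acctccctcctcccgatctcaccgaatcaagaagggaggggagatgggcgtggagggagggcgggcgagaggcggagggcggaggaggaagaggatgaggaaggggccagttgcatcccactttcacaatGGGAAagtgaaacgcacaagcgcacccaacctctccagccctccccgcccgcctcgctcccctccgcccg
Sema3e and Plxnc1 hold the letters once each in this window, and Plxnb3 and Sema7a do not hold them. The Sema3e window has a GC content of 41%, against 65% for Plxnb3, 65.5% for Sema7a and 66% for Plxnc1. Of the 58 guidance genes with an entry, 27 held GGGAA on either strand (46.6%), against 48.5% of 27025 promoters of the same length. Among the 15 genes with an unadjusted p under 0.05, 14 had an entry and 8 held it (57.1%). A match of these 5 letters is a description of the sequence and no evidence of binding.

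Eph receptors were split between directions. Of 13 tested, 7 lay above 0 and 6 below, the libraries did not overlap for 3 that were higher and 5 that were lower (61.5% in all, against 45.6% of all genes tested), and the median log2 fold change was 0.01. Ephb6, a receptor without kinase activity, stood at 40.0 and 44.3 CPM in cello, against 26.6 and 33.6 CPM in wild-type (log2 fold change 0.49, SE 0.14, limma adjusted p = 0.425). Ephb3, known for positioning cells in the gut epithelium, stood at 44.99 and 47.7 CPM in cello, against 56.2 and 61.4 CPM in wild-type (-0.34, SE 0.09, limma adjusted p = 0.421). Epha1 stood at 21.8 and 20.04 CPM in cello, against 25.3 and 26.8 CPM in wild-type (-0.31, SE 0.10, limma adjusted p = 0.437). In these 3 genes the genotypes did not overlap, and the difference of Ephb6 was 0.32 without wild-type replicate 1.

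Epha4, which takes part in bundling spiral ganglion axons, stood at 32.1 and 36.9 CPM in cello, against 24.2 and 30.1 CPM in wild-type (0.35, SE 0.14, limma adjusted p = 0.463). Its values did not overlap either, and the difference was 0.19 without wild-type replicate 1. Ephb2, a receptor with a role in the vestibular organs of mice, stood at 21.8 and 27.4 CPM in cello, against 28.9 and 35.4 CPM in wild-type (-0.38, SE 0.16, limma adjusted p = 0.467), and the difference was -0.22 without cello replicate 1. Epha7 (100.1 and 112.5 CPM in cello, 105.9 and 105.2 CPM in wild-type) and Ephb4 (83.5 and 93.3 CPM in cello, 96.9 and 98.6 CPM in wild-type), the most abundant Eph receptors, had log2 fold changes of 0.01 and -0.15, with 95% intervals of -0.22 to 0.23 and -0.37 to 0.07.

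Of 8 tested ephrins, 5 lay below 0 (median -0.18 on the log2 scale), and 4 of these were among the 5 ephrin-A genes. The libraries did not overlap for 1 that was higher and 3 that were lower, 50% against 45.6% of all genes. Efna1 stood at 22.05 and 21.3 CPM in cello, against 29.6 and 26.5 CPM in wild-type (-0.36, SE 0.10, limma adjusted p = 0.425). Efna2 stood at 8.76 and 9.04 CPM in cello, against 10.7 and 12.5 CPM in wild-type (-0.36, SE 0.13, limma adjusted p = 0.450). Both had tight cello libraries below both wild-type libraries. Efna5 (21.7 and 23.5 CPM in cello, 23.3 and 21.5 CPM in wild-type), Efnb1 (30.8 and 31.0 CPM in cello, 28.6 and 32.2 CPM in wild-type) and Efnb2 (95.8 and 91.7 CPM in cello, 85.2 and 89.3 CPM in wild-type) had log2 fold changes of 0.01, 0.02 and 0.10, none past a threshold.

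**Figure D3:**
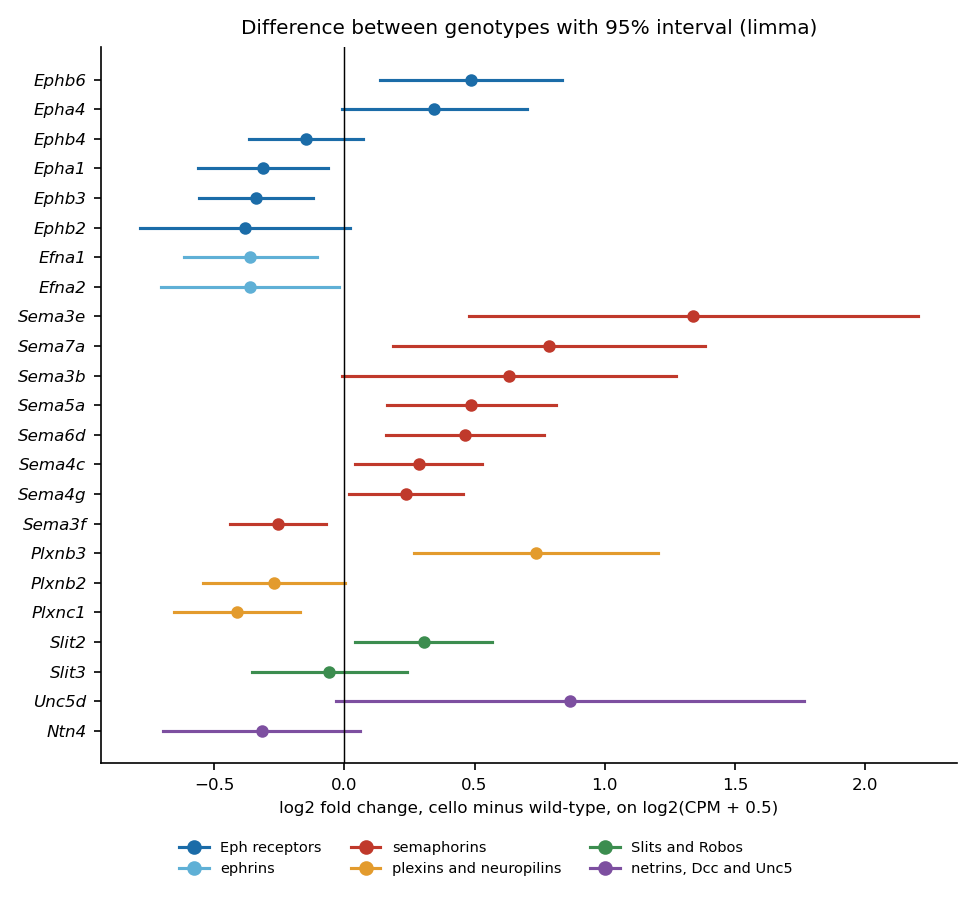
Log2 fold change, cello minus wild-type, on log2(CPM + 0.5), of 23 guidance genes with 95% intervals from limma, coloured by family. The interval of Sema3e runs from 0.48 to 2.20 and that of Sema3f from -0.44 to -0.07. Those of Plxnb2, Sema3b, Epha4, Unc5d, Ephb2, Slit3, Ntn4 and Ephb4 include 0.

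In the Slit and Robo family, 6 genes were tested and 3 were higher without overlap, 50% against 45.6% of all genes in both directions and 16.9% in this one. Slit2, the Slit that acts with Robo1 and Robo2 on spiral ganglion position, stood at 111.6 and 103.6 CPM in cello, against 93.8 and 80.7 CPM in wild-type (log2 fold change 0.30, SE 0.10, limma adjusted p = 0.441). Here wild-type replicate 2 was the lowest library, unlike for Sema3e and Sema7a, and the difference was 0.20 without it. Slit3 overlapped, at 46.6 and 38.6 CPM in cello, against 42.6 and 45.7 CPM in wild-type, with a log2 fold change of -0.057 that was 0.077 without cello replicate 2. Robo1 (83.0 and 109.6 CPM in cello, 106.0 and 114.9 CPM in wild-type) and Robo2 (21.5 and 34.0 CPM in cello, 33.3 and 37.8 CPM in wild-type) overlapped as well, with cello replicate 1 lowest. Robo4, the Robo of endothelial cells, stood at 15.1 and 8.49 CPM in cello, against 7.52 and 6.88 CPM in wild-type (0.62, 95% interval -0.08 to 1.32). Without cello replicate 1 the difference was 0.22, and that of Plxnd1 was 0.073.

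Netrins and their receptors had 0 of 8 tested genes at an unadjusted p under 0.05 and a median log2 fold change of -0.07. Unc5d, a repulsive netrin receptor that also binds Flrt proteins, stood at 13.8 and 21.8 CPM in cello, against 6.74 and 12.7 CPM in wild-type. Its genotypes did not overlap, yet the gap within wild-type (0.87 on the log2 scale) was as large as the log2 fold change (0.87, SE 0.35, limma adjusted p = 0.463). Leaving out wild-type replicate 1 gave 0.43. Ntn4 was at 104.9 and 79.9 CPM in cello, against 108.1 and 120.8 CPM in wild-type (-0.32, SE 0.15), and the difference was -0.12 without cello replicate 2. Ntn1, the diffusible attractant, stood at 26.5 and 38.9 CPM in cello, against 24.8 and 29.6 CPM in wild-type, and Dcc at 2.19 and 2.87 CPM in cello, against 2.31 and 3.32 CPM in wild-type, and both overlapped.

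Replicates of a genotype also differed. Within wild-type, replicate 2 lay above replicate 1 for 51 of the 66 genes, against 7876 of all 14721 genes. At an unadjusted p under 0.05, it did so for 7 of the 9 genes that were higher in cello and 4 of the 6 that were lower. Epha10, Sema3e, Unc5a, Unc5d and Sema3b had the largest gaps within wild-type, at 1.46, 1.01, 0.97, 0.87 and 0.78 on the log2 scale, and all of these had higher mean levels in cello. In each of them wild-type replicate 1 lay below replicate 2, which also lowers the wild-type mean. Epha10 (27 and 100 reads in wild-type) and Unc5a (24 and 60 reads) were low. Without wild-type replicate 1 the log2 fold change of Epha10 was -0.05. The difference between genotypes was larger than the gap within either genotype for 28 of the 66 genes (42.4%), against 31.1% of all genes tested. Within cello, Epha10, Sema3d and Robo4 had the largest gaps, at 0.87, 0.85 and 0.79 on the log2 scale, and Sema3d, a secreted semaphorin, stood at 41.0 and 74.4 CPM in cello, against 64.9 and 61.1 CPM in wild-type.

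**Figure D4:**
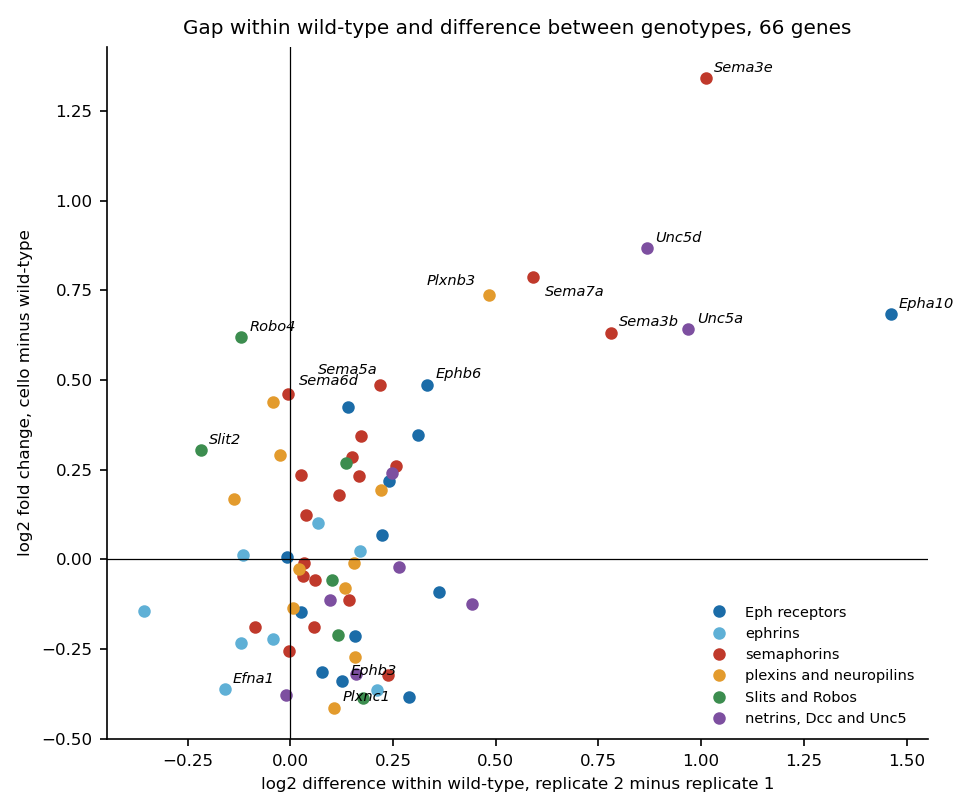
For each of the 66 tested guidance genes, the log2 difference within wild-type (replicate 2 minus replicate 1, horizontal axis) and the log2 fold change between genotypes (cello minus wild-type, vertical axis), coloured by family. Sema3e, Unc5d, Sema7a, Plxnb3, Sema3b, Unc5a and Epha10 lie at the upper right, and Sema6d, Slit2 and Robo4 are high with little or opposite gap within wild-type.

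Markers of several cell types differed between the same libraries, and in bulk tissue fewer cells of a type and less RNA per cell cannot be told apart. The summed level of 12 markers of spiral ganglion neurons was 959.4 and 1131.7 CPM in cello, against 304.7 and 735.0 CPM in wild-type, and that of 10 Schwann cell markers was 3952.3 and 4798.2 CPM in cello, against 1117.5 and 2705.2 CPM in wild-type. Of these, 6 of 12 and 9 of 10 were higher in cello without overlap, where 16.9% of all genes were. In the Schwann cell list 1 marker, Sox10, was lower, where 28.7% of all genes were. The neuronal markers Syt1, Uchl1 and Prph had log2 fold changes of -0.43, -0.12 and -0.003. Wild-type replicate 1 was lowest in both sums, as it was for Sema3e, Plxnb3, Sema7a, Sema3b and Unc5d. These genes were picked by that pattern, so the match follows from how they were chosen. Of the 9 genes higher in cello at an unadjusted p under 0.05, 2 (Slit2 and Sema6d) had wild-type replicate 1 above replicate 2. Epithelial markers ran the other way, with a sum of 710.5 and 770.2 CPM in cello, against 906.4 and 975.0 CPM in wild-type, and 7 of 8 lower without overlap. All 6 outer hair cell markers, Ikzf2 among them, were lower as well. Their sums were 120.6 and 108.5 CPM in cello, against 250.3 and 243.1 CPM in wild-type. Of 6 markers of hair cells of both kinds, 4 were lower without overlap. The others in that list, Myo7a and Otof, had log2 fold changes of 0.04 and 0.03. For the stria, 6 of 6 markers were lower. Ephb3, Epha1, Efna1, Efna2, Sema3f and Plxnc1 were lower in cello too. They were picked by that difference, and 28.7% of all genes were lower without overlap, so the shared direction follows from how they were chosen.

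Endothelial markers summed to 425.6 and 283.1 CPM in cello, against 315.6 and 310.3 CPM in wild-type, with cello replicate 1 highest. That library was also highest for Robo4 and Plxnd1, which were named after their values were seen. It was highest for Sema6d, Sema5a, Sema7a and Plxna2 as well. Bone markers summed to 1895.5 and 432.8 CPM in cello, against 805.4 and 809.6 CPM in wild-type. None of the 16 marker lists, those of hair cells, supporting cells and stria included, held a gene at 0 CPM in all 4 libraries. The part of cell type content in the differences of the guidance genes was not tested.

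**Figure D5:**
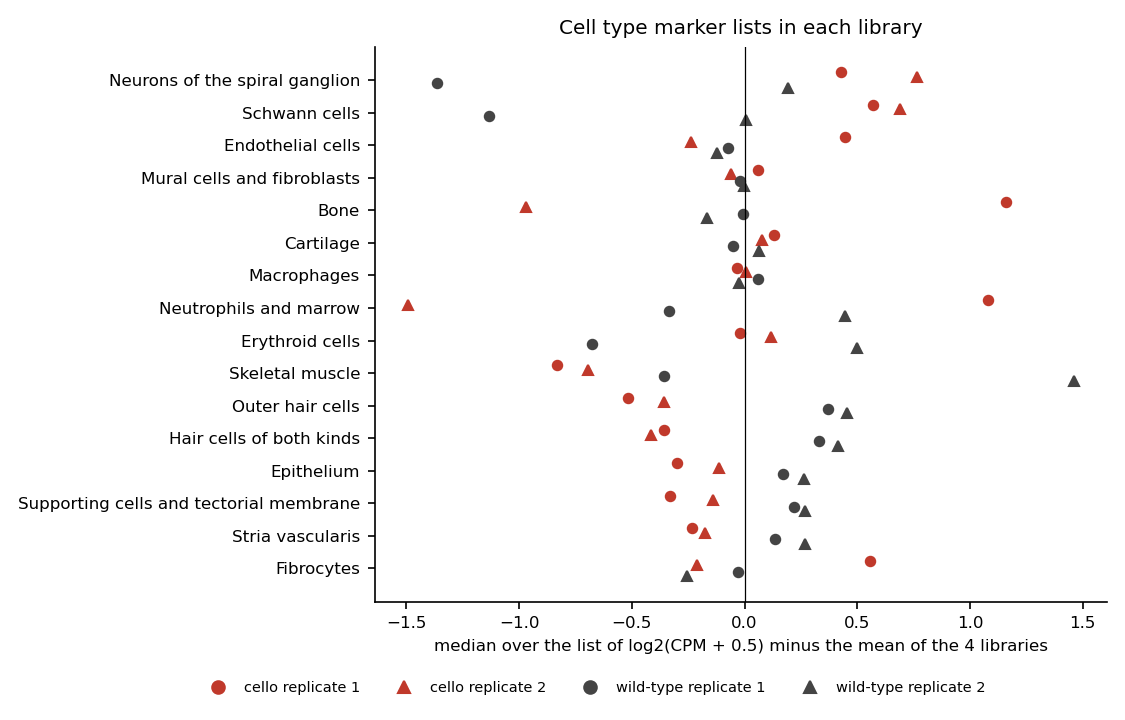
Median over each of 16 lists of cell type markers of log2(CPM + 0.5) minus the mean of the 4 libraries, with cello in red and wild-type in dark grey, circles for replicate 1 and triangles for replicate 2. Neuronal and Schwann cell lists run from -1.36 and -1.13 in wild-type replicate 1 to 0.77 and 0.69 in cello replicate 2. The medians of epithelial and hair cell lists are lower in both cello libraries, though single members such as Otof are not.

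Genes of other guidance pathways were counted in the same way. Of 33 tested further cues, receptors and co-receptors, 4 were higher and 2 lower at an unadjusted p under 0.05 (18.2%, against 10.9% of all genes, median log2 fold change 0.06), and 0 passed after adjustment in limma. Mag, among the 4 that were higher, had the largest difference of the list (1.26, SE 0.46) and is also counted above as a Schwann cell marker. The endothelin receptor gene Ednra stood at 31.2 and 31.7 CPM in cello, against 44.7 and 42.9 CPM in wild-type (-0.47, SE 0.08, adjusted p = 0.419 by limma and 0.030 by DESeq2). Ntng1, a lipid-anchored relative of the netrins that does not bind Dcc, was at 14.4 and 17.7 CPM in cello, against 7.90 and 10.9 CPM in wild-type (0.75, SE 0.20). The chemokine gene Cxcl12 stood at 147.2 and 110.8 CPM in cello, against 88.8 and 87.0 CPM in wild-type (0.54, SE 0.15, adjusted p = 0.423 by limma and 0.040 by DESeq2). Chl1, an adhesion molecule that acts with Nrp1 on Sema3a signals, stood at 35.0 and 25.4 CPM in cello, against 19.9 and 20.1 CPM in wild-type (0.57, SE 0.17). Ednra, Ntng1, Cxcl12 and Chl1, named for the smallest unadjusted p of the list, did not overlap between genotypes. Over the whole list 13 of 33 tested genes did not overlap, 39.4% against 45.6% of all genes tested.

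Among 39 tested signalling genes 3 were higher and 3 lower at an unadjusted p under 0.05 (15.4%, against 10.9% of all genes, median -0.01), and 0 passed after adjustment in limma. Rnd1, a small GTPase that binds plexins, stood at 8.72 and 9.10 CPM in cello, against 13.6 and 15.0 CPM in wild-type (-0.65, SE 0.12). Gipc1, an adaptor of neuropilin-1 and of plexins, stood at 50.9 and 53.5 CPM in cello, against 67.7 and 69.0 CPM in wild-type (-0.39, SE 0.08). Mical3, whose relative in Drosophila acts on actin downstream of a plexin, stood at 45.5 and 44.2 CPM in cello, against 33.2 and 34.5 CPM in wild-type (0.40, SE 0.08, adjusted p = 0.419 by limma and 0.028 by DESeq2). Fyn, a kinase used by semaphorin and Dcc signalling, stood at 43.6 and 53.0 CPM in cello, against 29.6 and 37.3 CPM in wild-type (0.53, SE 0.15). The libraries of these 4 genes, named for the smallest unadjusted p of the list, lay apart by genotype. Over the whole list 20 of 39 tested genes did not overlap, 51.3% against 45.6% of all genes tested.

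By position, 4 of the 68 guidance genes share chromosome 1 with Ikzf2 (69531214 to 69687245 of GRCm38, minus strand). Nrp2 (62703285 to 62818695, plus strand) lies 6.71 Mb and Epha4 (77367185 to 77515088, minus strand) 7.68 Mb from it. Sema4c and Plxna2 lie 33.0 and 124.9 Mb away. Their log2 fold changes were -0.01 for Nrp2, 0.35 for Epha4, 0.29 for Sema4c and 0.44 for Plxna2. Plxna2, a receptor of class 6 semaphorins, stood at 44.6 and 30.6 CPM in cello, against 27.5 and 26.7 CPM in wild-type, and its difference was 0.17 without cello replicate 1.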

How the data were processed

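RNA of whole cochlea was made into TruSeq RNA libraries, per the labels' protocols. Alignment used TopHat and the build was GRCm38, per the submitters' processing notes. The counter, the strand setting and the annotation remain not given in the sources used here, so reads of Plxna4 and its antisense RNAs cannot be told apart. The authors deposited CPM, scaled to all counted alignments, of which 70.0% to 72.8% lay in genes. Entries naming no gene were kept out of the tests. Each library's CPM values were multiples of a single step (100% whole within 0.001 of a read), and whole reads were recovered from it. GENCODE M21 gave symbol and position to 36504 of 37239 identifiers.

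The 14721 genes that reached 1 CPM in 2 or more libraries were fitted by genotype as log2(CPM + 0.5) with limma 3.58.1 in R 4.3.3, using a trended variance. Tests were two-sided and p-values were adjusted by Benjamini-Hochberg over all these genes, at a threshold of 0.05. With 2 libraries a genotype, the smallest exact permutation p is 0.333, so none is given. The alternatives were edgeR 4.0.16 (quasi-likelihood) and DESeq2 1.42.0 on the recovered reads (1713 genes had an undefined DESeq2 adjusted p), other pseudocounts, filters and scalings, no variance trend, the replicate number as a block, and each library left out. The main limma fit, edgeR and DESeq2 were run on simulated reads with known changes, and the other settings were not. The genes named were those with an unadjusted p under 0.05, then the next by p up to 20, the highest per kb of each family, and the 4 smallest p of each further list. Other members, as partners or for their spread, and Mag, as a gene of a marker list too, were named after their values were seen. Members, lists and markers were chosen with earlier results of these data known. Replicate libraries differed beyond sampling noise (chi-square per degree of freedom 55.0 in cello and 20.4 in wild-type). Promoter sequences are RefSeq's on GRCm38.p6, with the first listed start used for 12 of the 58 genes matched. Python 3.11.15, pandas 2.3.3 and matplotlib 3.10.9 drew the plots and tables.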

Additional observations from a re-analysis of the deposited data

How the results depend on the processing

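Directions of the 23 guidance genes named by rule held under all 15 other settings, except for Slit3, whose log2 fold change ran from -0.19 without cello replicate 1 to 0.077 without cello replicate 2. DESeq2 called 195 genes and 2 guidance genes (Sema3e and Sema6d), and limma without wild-type replicate 2 called 90 genes and 1 guidance gene (Sema3e). Leaving out each library gave 0 to 90 called genes and 0 to 1 called guidance genes. The guidance genes at an unadjusted p under 0.05 numbered 4 to 12 higher and 1 to 11 lower when 1 library was left out, with the fewest higher without wild-type replicate 1 and the fewest lower without wild-type replicate 2. With the replicate number as a block 14 were higher and 8 lower, and with DESeq2 15 were higher. Non-overlapping guidance genes numbered 24 to 31 higher and 18 to 27 lower with 1 library left out, where fewer libraries make overlap rarer. The shares of all genes under these settings are not given, so these counts do not set the guidance genes apart.

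Median log2 fold changes ranged, with 1 library left out, from -0.041 to 0.093 over all guidance genes, from -0.14 to 0.092 for Eph receptors, from -0.25 to -0.032 for ephrins, from 0.13 to 0.24 for semaphorins, from -0.073 to 0.085 for plexins and neuropilins, from 0.047 to 0.15 for Slits and Robos, and from -0.16 to 0.11 for netrins with Dcc and Unc5. For the 6 tested Slits and Robos it was 0.074 with a pseudocount of 1, 0.028 with no filter, -0.057 at a mean CPM of at least 5, 0.13 with median-of-ratios rescaling, 0.14 with CPM over reads in genes, 0.17 in edgeR and 0.16 in DESeq2. The further guidance genes at an unadjusted p under 0.05 numbered 4 to 14 higher and 3 to 11 lower with 1 library left out, against 7 and 5 with all libraries. The cause of these shifts was not tested, and no share of all genes is given beside these counts. The labels do not say that equal replicate numbers share a litter. The deviations of equal numbers from their group means correlated at r = 0.13 over 14721 genes. With 2 libraries a genotype, the pairs must give the same r, so this is a single value. Whether equal numbers share more than the number was not tested. The block called 0 guidance genes.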
